A study of Mus musculus with 95 samples.

Results

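B cell and T cell segments of thymoma were compared within the same mice. The segments were chosen by their labels: 12 carried the label for B cells in thymoma and 12 the label for T cells in thymoma, 3 of each class in each of 4 mice, out of 95 segments in the series. The 4 mice, 1042, 1044, 1082 and 1157, had the genotype Gtf2ifl/wt Foxn1-Cre/wt, in which a Cre recombinase driven by Foxn1, a gene of thymic epithelial cells, acts on a floxed Gtf2i allele. The series describes them as a knock-in model of thymoma, a tumour of the thymic epithelium, with a point-mutant form of Gtf2i, which encodes a general transcription factor. For comparison, 2 control mice, 1057 and 1059, were Gtf2ifl/fl, and 2 control mice, 1172 and 1143, were Gtf2ifl/wt, all without Cre by their labels. Thymus sections fixed in formalin and embedded in paraffin were read with the GeoMx mouse whole transcriptome atlas, in which photocleavable barcodes of hybridised probes are collected from the lit area of a region and counted. B cell segments were the area positive for B220, T cell segments the area positive for CD3, and epithelial segments the area positive for pan-cytokeratin. The labels give no ages.

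B cells are a small resident population of the normal thymus. They lie mainly in the medulla and at its border with the cortex, present antigen to developing T cells and take part in negative selection. B220 is the CD45 isoform that marks mouse B cells, and CD3 is the signalling complex of the T cell receptor. Most thymic T cells are immature cells of the cortex, which mature as they move to the medulla, so the T cell segments of the control cortex and medulla serve as 2 separate points of reference for the T cell segments of thymoma. Thymic epithelium forms a mesh around these cells.

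B and T cell segments did not come from the same places. The 12 B cell segments shared 0 regions with the T cell segments, whereas all 12 T cell segments were cut from regions that also gave an epithelial segment. The difference between the classes and the difference between the regions they came from therefore cannot be told apart. Mice shared slides by pairs, 1042 with 1044 and 1082 with 1157, and the headers name 1 plate for the series. The control mice were on other slides, 1057 with 1059 and 1172 with 1143. Segments of 1 mouse are not replicates of a condition, so each mouse's 3 segments of a class were added up into 1 library, giving 4 B cell and 4 T cell libraries with the mouse as a block. The files do not pair probe IDs with genes. Cell type markers could therefore not be looked up by name, the targeted gene was not looked at, and probe lists called between the segment classes of control thymus stand in for markers.

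The B cell libraries held 3286275 to 8468431 counts from 2620 to 9080 nuclei, against 10700536 to 17653470 counts from 8273 to 12495 nuclei in the T cell libraries. Single B cell segments held 709455 to 3561163 counts and single T cell segments 2541460 to 8780374. Counts per nucleus were 1564, 1020, 746 and 933 in the B cell libraries of mice 1042, 1044, 1082 and 1157, against 2048, 1258, 1020 and 1421 in their T cell libraries. They were lower in the B cell library in 4 of 4 mice, by 371 ± 134 counts (SD of the paired differences, n = 4; exact two-sided sign-flip permutation test, p = 0.125, adjusted p = 0.75 over 7 such measures). That p is the smallest that 4 mice allow. Nuclei per 1000 square micrometres were 29.0, 31.9, 29.9 and 38.3 in the B cell libraries, against 19.5, 22.1, 31.0 and 29.0 in the T cell libraries, higher in B in 3 of 4 mice (exact permutation p = 0.25, adjusted p = 0.75). Sequencing saturation, the share of aligned reads beyond the counts they gave, averaged 75.9 ± 2.57% in B and 75.1 ± 0.947% in T (SD, n = 4 each). Thinned to the same depth of 3286275 counts, the B cell libraries had at least 10 counts for 20142 to 20173 probes and the T cell libraries for 20139 to 20166, of 20175 probes in all. At this depth nearly every probe is counted. Single segments thinned to 709455 counts had 17727 to 18907 such probes in B and 16435 to 18463 in T. By segment medians, B exceeded T by 843 probes on average over the mice, but was lower in mouse 1082. A count at almost every probe in every library includes whatever nonspecific signal the probes carry, and no background was subtracted. In tissue areas of this kind, fewer cells of a type and less RNA per cell cannot be told apart.

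B cell and T cell segments of thymoma differed widely. Of 20175 probes tested, 1453 were higher in B cell segments (7.2% of those tested) and 2580 lower (12.8%) at an adjusted p below 0.05 in edgeR's quasi-likelihood test with Benjamini-Hochberg adjustment, 20% in either direction. Most of the changes were small. The median log2 fold change was 0.54 among the higher probes and −0.58 among the lower ones, beside 0.03 over all probes tested. A change of over 2-fold was reached by 331 higher and 424 lower probes, of over 4-fold by 59 and 67, and of over 8-fold by 16 and 11. The plot of fold change against level shows the called probes on both sides over a wide range of levels, with the largest changes at medium to high levels. In log2 CPM (counts scaled to a common library total) after TMM, edgeR's scaling of libraries by their trimmed means, the 4 B cell libraries all lay above the 4 T cell libraries for 1528 probes (7.57%) and all below them for 2481 (12.3%). Of the called probes, 1113 higher and 2022 lower ones were separated in this way. Scaled by the upper quartile in place of TMM, 2064 probes were higher and 2172 lower, so the uneven split between the directions was not kept under that scaling. DESeq2, with its own scaling, gave 1256 higher and 2630 lower. Without mouse 1157 the lower probes numbered 1687 and the higher ones 1097.

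**Figure D1:**
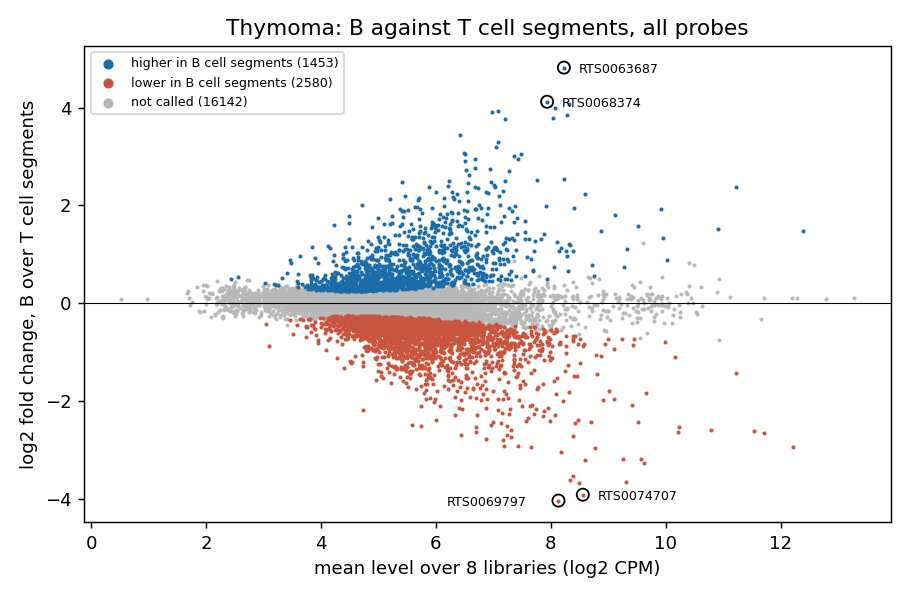
Log2 fold change of B over T cell segments of thymoma (vertical axis) against the mean level over the 8 libraries in log2 CPM (horizontal axis), 1 point per probe, coloured by the call at an adjusted p below 0.05. The 1453 higher and 2580 lower probes lie on either side of 0, and the 4 circled probes are those described by name.

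The lower probes made up a larger part of the T cell libraries than the higher ones made up of the B cell libraries. The 1453 higher probes took 12.8 to 13.7% of the counts in B cell libraries, against 5.35 to 6.63% in T cell libraries. The 2580 lower probes took 13 to 15.2% of the counts in B cell libraries, against 23.1 to 29.5% in T cell libraries. These shares describe probes chosen by this very contrast and carry no test. The 59 probes over 4-fold higher had a median level of 205 ± 11.2 CPM in B cell libraries, against 29.4 ± 4.42 CPM in T cell libraries (mean ± SD of the library medians, n = 4 mice each). Their median was 35.8 ± 8.9 CPM in the epithelial libraries of the same mice, which took no part in the contrast. The median over all probes was 23.4 to 30.2 CPM in the B and T cell libraries. The 67 probes over 4-fold lower had 51.6 ± 11.2 CPM in B cell libraries, against 314 ± 52.6 CPM in T cell libraries, and 283 ± 57.7 CPM in epithelial libraries. The 11 probes over 8-fold lower had 66.6 ± 22.3 CPM in B, against 728 ± 185 CPM in T, and 907 ± 84.5 CPM in epithelial libraries.

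The probe with the largest rise among those that met the naming rule was RTS0063687. Its level was 588, 472, 532 and 843 CPM in the B cell libraries of mice 1042, 1044, 1082 and 1157, against 15.0, 27.3, 15.9 and 22.6 CPM in their T cell libraries. The naming rule required that the B and T cell libraries of all 4 named probes not overlap. Every one of the 12 B cell segments, at 428 to 901 CPM, lay above every T cell segment, at 11.9 to 33.4 CPM. The segments make up the libraries, so this is no separate support, here or for the probes below. The log2 fold change was 4.82 (SE 0.24, edgeR adjusted p = 4.126e-08). The epithelial libraries, at 21.0, 33.6, 19.7 and 34.1 CPM, were close to the T cell ones. In control thymus the probe averaged 196 ± 118 CPM in B cell libraries, against 16.4 ± 2.12 CPM in cortical T cell libraries (SD, n = 4 each).

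RTS0068374 was the second. It had 458, 487, 537 and 472 CPM in the B cell libraries, against 16.6, 39.7, 25.9 and 26.7 CPM in the T cell libraries, a log2 fold change of 4.12 (SE 0.21, edgeR adjusted p = 4.137e-08). Its level was even across the 4 tumours, with an SD of 34.4 CPM around a mean of 488 CPM in B. In control thymus it averaged 267 ± 145 CPM in B cell libraries, against 25.6 ± 8.0 CPM in cortical T cell libraries (SD, n = 4 each). The control B cell library of mouse 1143 was shallow and rested on 2 counts of RTS0063687 and 6 of RTS0068374.

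The probe that fell most was RTS0069797. It had 22.5, 38.3, 24.0 and 29.3 CPM in the B cell libraries, against 911, 387, 293 and 355 CPM in the T cell libraries. Mouse 1042 was far above the other 3 in T. The log2 fold change was −4.04 (SE 0.33, edgeR adjusted p = 1.163e-06), and the 12 B cell segments, at 16.3 to 48.1 CPM, did not overlap the 12 T cell segments, at 261 to 1007 CPM. In the epithelial libraries it was higher still, at 1721, 800.2, 1178 and 1046 CPM. In control thymus it had 49.6 ± 20.5 CPM in B cell segments, 113 ± 12 CPM in cortical T cell segments and 224 ± 92.2 CPM in cortical epithelium (SD, n = 4 each).

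RTS0074707 followed the same order of classes. Its level was 40.3, 48.7, 36.2 and 33.8 CPM in the B cell libraries, against 1296, 624, 351 and 343 CPM in the T cell libraries, with a log2 fold change of −3.92 (SE 0.32, edgeR adjusted p = 1.067e-06). The epithelial libraries held 3279, 1244, 1853 and 1000 CPM. Mouse 1042 again had the highest level in both the T cell and the epithelial segments. In control thymus this probe had 56.5 ± 12.1 CPM in B cell segments, 252 ± 73.3 CPM in cortical T cell segments and 746 ± 167 CPM in cortical epithelium (SD, n = 4 each). Both probes that fell most were thus highest under the epithelial mask in thymoma and, on average, in the control cortex. In control mouse 1143, RTS0069797 had 105.8 CPM in cortical epithelium on 11 counts, against 112.1 CPM in cortical T cell segments. In the control medulla, epithelium and T cell segments averaged 191 and 83.0 CPM of RTS0069797, but 86.3 and 93.3 CPM of RTS0074707. The control B cell library of mouse 1143 rested on 5 counts of RTS0069797 and 4 of RTS0074707. What part of the level of both probes in T cell segments comes from epithelium in the same regions was not tested.

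**Figure D2:**
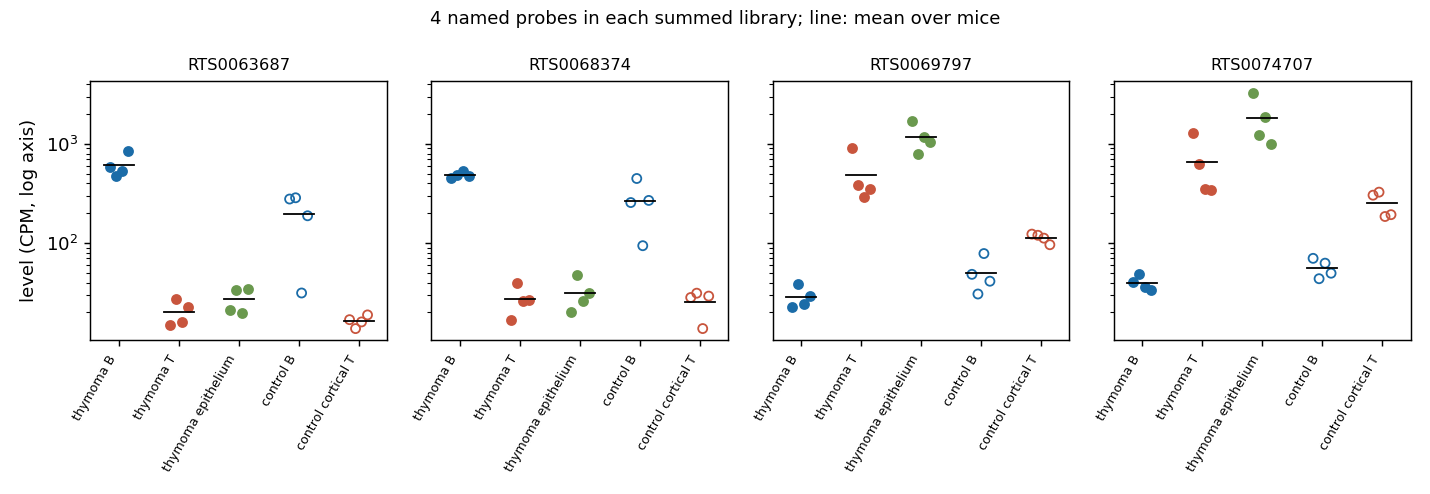
Level of the 4 named probes in CPM on a log axis, 1 point per summed library (4 mice a group), with a line at the mean. RTS0063687 and RTS0068374 are mostly high in the B cell libraries of thymoma (filled) and control (open) and low in the T cell and epithelial ones. The control B cell library of mouse 1143 is an exception for RTS0063687, at 31.35 CPM on 2 counts, within the range of the thymoma epithelial libraries. RTS0069797 and RTS0074707 are low in B and on average highest in thymoma epithelium.

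Probe lists taken from control thymus say how far the contrast in the tumours follows that between normal B and T cell segments. These lists come from other mice than the thymoma values. In control thymus, too, the B cell segments came from other regions than the T cell segments. The lists therefore hold differences of class and of region that cannot be told apart, and so does their overlap with the thymoma contrast. In control thymus, 1773 probes were higher in B cell than in cortical T cell segments (8.8% of 20155 tested) and 1091 lower (5.41%). Against medullary T cell segments, which 3 control mice had, 439 were higher in B (2.19% of 20039) and 95 lower (0.474%). Among the 1773 probes of normal B over cortical T cell segments, 959 were higher in thymoma B cell segments and 17 lower, at a median log2 change of 0.39, beside 7.2% higher, 12.8% lower and a median of 0.03 over all probes. The 959 are 66% of the higher probes of thymoma and 54.1% of the control list. Among the 439 probes of normal B over medullary T cell segments, 299 were higher and 9 lower, with a median of 0.99. The 299 are 20.6% of the higher probes of thymoma and 68.1% of the control list.

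The probes of normal T cell segments went the other way. Of the 1091 probes of normal cortical T over B cell segments, 910 were lower in thymoma B cell segments and 0 higher, and the median log2 fold change was −0.78. The 910 are 35.3% of the lower probes of thymoma and 83.4% of the control list. Of the 95 probes of normal medullary T over B cell segments, 67 were lower and 5 higher, with a median of −0.90. Among the largest changes nearly all probes were on these lists. Of the 331 probes over 2-fold higher, 330 were on a control B cell list, and all 59 over 4-fold higher were. Of the 424 over 2-fold lower, 364 were on a control T cell list, and all 67 over 4-fold lower were. Of all probes tested, 8.96% are on a control B cell list and 5.56% on a control T cell list. The control fits that made these lists share their B cell libraries, and 405 probes are on both B cell lists and 64 on both T cell lists.

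Lists of the cortex and the medulla of control thymus were looked at in the same way. They share the control T cell libraries with the lists of B against T cell segments and are not further evidence beside them. In control T cell segments, 952 probes were higher in the medulla than in the cortex (4.72% of 20174 tested) and 1039 lower (5.15%). Of the 1039 cortical probes, 836 were lower in thymoma B than in T cell segments and 17 higher, with a median of −0.74, beside 12.8% lower, 7.2% higher and a median of 0.03 over all probes. They are 32.4% of the lower probes of thymoma and 80.5% of the list. Of the 952 medullary probes, 377 were higher and 67 lower, with a median of 0.21. They are 25.9% of the higher probes of thymoma and 39.6% of the list. Of the 67 probes over 4-fold lower in thymoma B cell segments, 59 were cortical by this list and 2 medullary.

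The 4 tumours gave the same direction for both B cell lists and both T cell lists. For normal B over medullary T cell probes, the median difference of B minus T was 0.97, 0.83, 1.17 and 0.79 in mice 1042, 1044, 1082 and 1157. For normal cortical T over B cell probes it was −0.92, −0.64, −0.58 and −0.94, and for the cortical probes −0.96, −0.62, −0.47 and −0.90. Mouse 1082 had the largest rise of the B cell lists and the smallest fall of the cortical T cell lists. Over all probes the medians lay between −0.02 and 0.02. A difference of over 2-fold was seen for 356 probes higher and 937 lower in mouse 1042, for 272 and 340 in 1044, for 441 and 230 in 1082, and for 376 and 622 in 1157. Mouse 1082 was thus the 1 tumour of the 4 with more probes over 2-fold higher than lower.

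**Figure D3:**
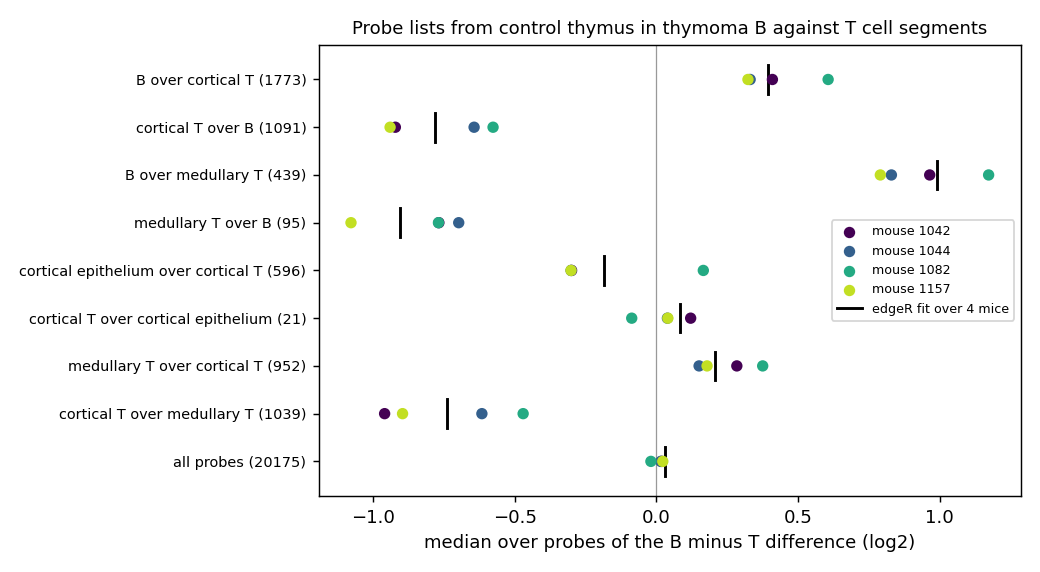
Median over probes of the B minus T difference (log2, horizontal axis) for each control list, with the number of probes tested in brackets, in each of the 4 thymoma mice (points) and in the fit over the 4 (bar). In all 4 mice the lists of B over T lie right of 0 and those of T over B and of cortical over medullary T left of it, and the epithelial list lies at 0.17 in mouse 1082 and near −0.30 in the others.

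Single segments showed the same order. The level of a list in a segment was taken as the mean log2 CPM of its probes minus that of all probes. For normal B over medullary T cell probes it was 1.95 to 2.37 in the 12 B cell segments, against 0.94 to 1.40 in the 12 T cell segments and 1.11 to 1.81 in the 13 epithelial segments. For normal cortical T over B cell probes it was 0.45 to 0.70 in B cell segments, against 1.23 to 1.52 in T cell segments and 0.88 to 1.38 in epithelial segments. No B cell segment overlapped a T cell segment on either list. The epithelial segments, which share regions with the T cell segments, overlapped them on both lists and overlapped the B cell segments on neither. Several epithelial segments lay between the 2 classes on each list. Those furthest from T cell segments lay at 1.81 on the B cell list (mouse 1157) and 0.88 on the T cell list (mouse 1044).

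**Figure D4:**
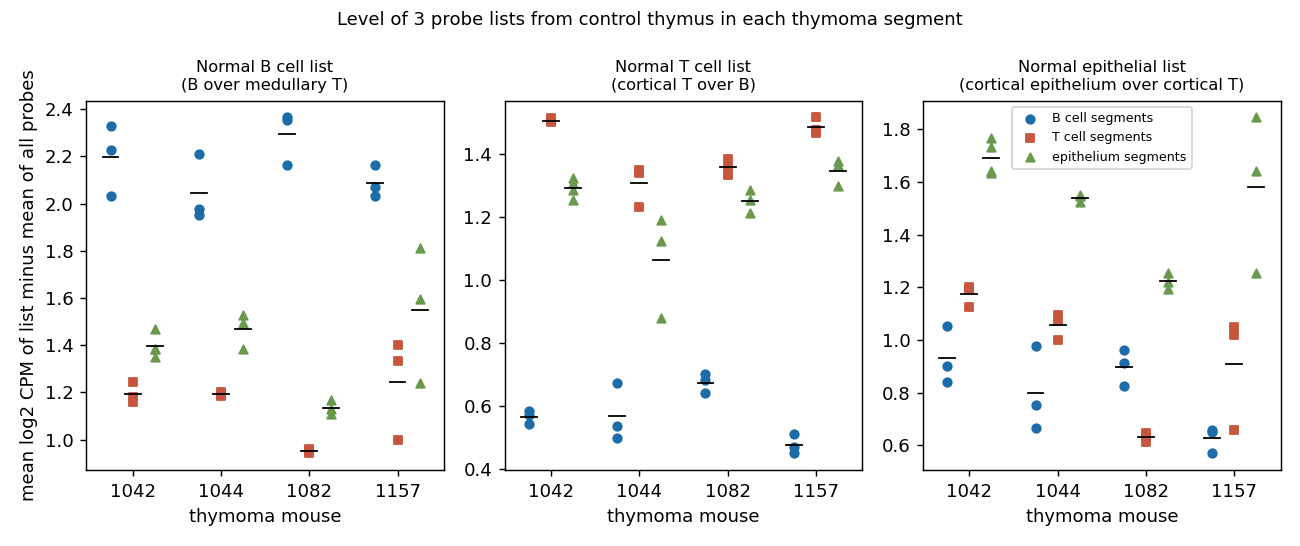
Mean log2 CPM of 3 control lists minus the mean of all probes (vertical axes) in each segment of the 4 thymoma mice (horizontal axes), with B cell segments left of T cell segments and epithelial segments right of them, and a line at each mean. B and T cell segments separate on the B and T cell lists in every mouse. On the epithelial list the B cell segments lie below the T cell segments in mice 1042 and 1044, above them in mouse 1082, where the T cell segments lie at 0.61 to 0.65, and overlap them in mouse 1157.

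The segments within a class also agreed to different degrees. Over all probes, the correlation of log2 CPM between segments was 0.972 to 0.988 for 2 T cell segments of 1 mouse (12 pairs) and 0.917 to 0.971 for 2 B cell segments of 1 mouse (12 pairs). It was 0.848 to 0.924 for a B and a T cell segment of 1 mouse (36 pairs). These are correlations across probes, which are not independent, and B cell segments were shallower. In a principal component analysis of the 8 libraries, the first component held 59.7% of the variance and put the 4 B cell libraries on 1 side of 0 and the 4 T cell libraries on the other. One T cell segment of mouse 1157, from region 9, stood apart from its 2 neighbours. Its chi-square per degree of freedom against them was 6.11 and 4.03, where the other pairs of segments of 1 mouse and class gave 1.26 to 3.26. This measure grows with depth, and the segment was the deepest of both classes, at 8780374 counts. Its level was 1.00 on the normal B over medullary T cell list, beside 1.33 and 1.40 in the neighbours, and 0.66 on the epithelial list, beside 1.02 and 1.05. Without it, 1587 probes were higher and 2421 lower.

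Epithelial probes differed between the tumours. In control cortex, 596 probes were higher in epithelial than in T cell segments (2.95% of 20173 tested) and 21 lower (0.104%). Of the 596, 100 were higher in thymoma B than in T cell segments (16.8%, beside 7.2% of all probes) and 214 lower (35.9%, beside 12.8%), and the median fold change on the log2 scale was −0.19, beside 0.03 over all probes. The median difference of B minus T was −0.30 in mouse 1042, −0.30 in 1044 and −0.30 in 1157, but 0.17 in 1082, and without mouse 1082 the median of the list in the fit was −0.30. With upper-quartile scaling it was −0.09. The T cell segments of mouse 1082 held the lowest level of this list, 0.61 to 0.65 by segment, against 0.66 to 1.20 in the T cell segments of the other 3 mice, while the B cell segments lay at 0.57 to 1.05 over the 4 mice. In the epithelial segments the list stood at 1.19 to 1.85. The part that epithelium inside the T cell mask has in the lower probes was not tested. Among the large changes the list appeared on both sides. It held 56 of the 331 probes over 2-fold higher and 66 of the 424 over 2-fold lower, and 9 of the 59 over 4-fold higher and 15 of the 67 over 4-fold lower. Of the 21 probes of normal cortical T over epithelial segments, 2 were higher (9.52%) and 4 lower (19%), close to the shares of all probes, with a median of 0.08.

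Whether the B minus T difference, taken with its sign, was higher or lower in thymoma than in control thymus was tested as an interaction. The test was made in 1 fit with the mouse as a block. A lower value can thus be a larger difference in favour of the T cell segments. With cortical T cell segments as the control side, the difference was higher in thymoma for 23 of 20175 probes (0.114%) and lower for 100 (0.496%), 0.61% in either direction, by edgeR's quasi-likelihood test at an adjusted p below 0.05. With medullary T cell segments as the control side, it was higher for 208 probes (1.03%) and lower for 555 (2.75%), 3.78% in either direction. Both tests use the same control B cell and thymoma libraries. No slide held both thymoma and control mice. A change of the B against T difference with thymoma therefore cannot be told apart from one with the slide. The control zone enters as well. Of the 555 lower probes of the medullary test, 406 were on the control list of cortical over medullary T (5.15% of probes tested). Of its 208 higher probes, 141 were on the reverse list (4.72%). In the cortical test, 69 of the 100 lower probes were on the list of cortical epithelium over cortical T (2.95%). These lists share control libraries with the tests. The part of the control zone was not tested. The 100 lower probes of the cortical test had a median B minus T log2 fold change of −0.92 in thymoma and 0.09 in control, and the 23 higher ones 1.93 in thymoma and 1.11 in control. The 555 lower probes of the medullary test had −1.04 in thymoma and 0.17 in control, and the 208 higher ones 1.10 in thymoma and 0.11 in control. These medians describe probes chosen by the test.

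The interaction counts were unstable. With upper-quartile scaling, 86 probes were higher and 138 lower in the cortical test, and 357 higher and 539 lower in the medullary one, which moved the median interaction of all probes to 0.11 and 0.17, beside 0.03 and 0.06 with TMM. Without the block no probe was called by edgeR in either test, although 955 and 1651 probes had an unadjusted p below 0.05, and DESeq2 with the block called 216 and 1159. Single mice decided the size of the count. The cortical test called 1141 probes without thymoma mouse 1082, and 30, 21, 46 and 31 without control mice 1057, 1059, 1143 and 1172. The medullary test called 1559 without mouse 1082 and 504 without mouse 1157, and 225 and 23 without control mice 1057 and 1172. The control side rests on 1 B cell segment in mouse 1057, on 63805 counts in the B cell library of mouse 1143, and on 3 mice for the medulla.

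Among the named probes, the 2 that fell differed between thymoma and control in both tests. For RTS0069797 the B minus T log2 fold change was −4.04 in thymoma, against −1.52 for control B minus cortical T and −0.77 for control B minus medullary T, with interactions of −2.53 (edgeR adjusted p = 0.001429) and −3.25 (adjusted p = 0.0002883). For RTS0074707 it was −3.92 in thymoma, against −2.36 and −0.45 in control, with interactions of −1.58 (edgeR adjusted p = 0.04064) and −3.41 (adjusted p = 0.0001424). RTS0063687 and RTS0068374 did not pass against cortical T cell segments, with interactions of 1.06 (edgeR adjusted p = 0.1373) and 0.75 (adjusted p = 0.1772). Against medullary T cell segments they passed, with 1.499 (edgeR adjusted p = 0.02535) and 1.64 (adjusted p = 0.001692). All 4 were chosen by their fold change in thymoma, which is 1 side of the interaction, so these tests are not independent of the choice.

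**Figure D5:**
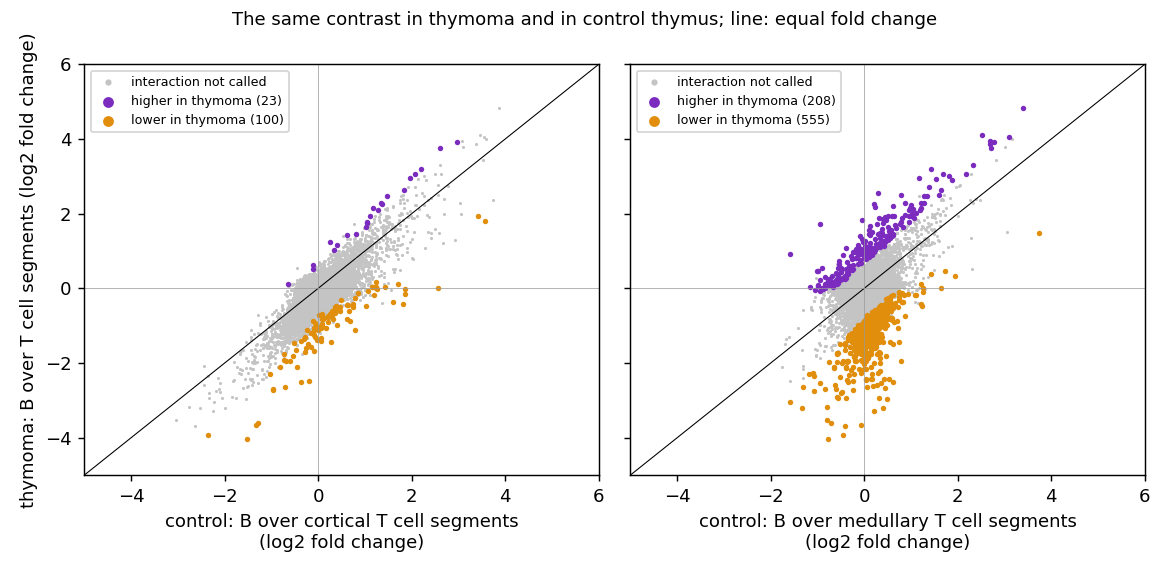
B over T cell segments in thymoma (vertical axis) against B over cortical or medullary T cell segments in control (horizontal axes), log2 fold change, 1 point per probe, with a line where both are equal. Coloured probes passed the interaction test, 23 higher and 100 lower in the cortical panel and 208 higher and 555 lower in the medullary panel, and both panels use the same thymoma values.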

How the data were processed

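Segments were GeoMx readings of formalin-fixed, paraffin-embedded mouse thymus, collected under antibody masks, per the labels' protocols. The deposited files hold raw counts of each probe in a segment, made by the authors with GeoMx_NGS_Pipeline 2.0.0 in DCC format 0.02, per the file headers. Further steps are not given in the sources used here. In part of the deposited files the count column has no usable name, so the unit was set down as other, and the same reader was used for them. Unlisted probes were set to 0, and background probes cannot be told from the rest, so nothing was subtracted.

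Counts were summed per mouse and class. Probes were filtered by filterByExpr, which removed none in the thymoma fit, scaled by TMM and tested by quasi-likelihood in edgeR 4.0.16 (R 4.3.3). The mouse was a block, and calls were made at an adjusted p (Benjamini-Hochberg) below 0.05. The block comes from the labels, which give both classes of each mouse. The deviations of the 2 libraries of a mouse from their class means correlated at 0.267, 0.635, −0.004 and 0.3 in mice 1042, 1044, 1082 and 1157, so mouse 1082 shows no pairing in the values. An SE is the log2 fold change divided by the root of its F. Levels are plain CPM, and per-mouse differences are TMM-scaled log2 CPM with a prior count of 2. Single values per mouse were compared by an exact sign-flip permutation test over 16 sign patterns. The thymoma fit and the cortical interaction were also run on simulated counts. Those had few changed probes, nearly as many up as down, and no differences between mice. They therefore do not test the scaling or the block.

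The named probes are the 2 largest and 2 smallest fold changes among called probes whose mean log2 CPM exceeds the median and whose B and T cell libraries do not overlap. The comparison, lists and tests were chosen with earlier results of these data known. Alternatives were DESeq2 1.42.0, limma 3.58.1 on segment means, upper-quartile scaling, no filter, probes above the median of mean CPM alone, no block, thinning to equal depth, leaving out each mouse, each slide alone, lists without the shallow control mouse 1143, and, for single values, medians over segments. Leaving out 1 T cell segment of mouse 1157 was added after the data were seen.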

Additional observations from a re-analysis of the deposited data

Results flagged for a closer look

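Among 30 groups of 4 mice, covering single values, named probes and list medians, 2 held a mouse far from the others, where chance gives about 1 in 20. RTS0069797 had 911 CPM in the T cell library of mouse 1042, against 293 to 387 CPM in the T cell libraries of the other 3. The median B minus T difference of the normal cortical epithelial list was 0.166 in mouse 1082 and −0.301 to −0.299 in the other 3.

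The difference between B and T cell segments was itself tested between thymoma and control. It differed for 123 probes against cortical T cell segments and for 763 against medullary ones. Thymoma and control mice were on different slides, so the 2 cannot be told apart here. Many of these probes were also on the control lists of cortex against medulla or of cortical epithelium, as given above. Against medullary T cell segments, the interaction was 1.499 for RTS0063687, 1.64 for RTS0068374, −3.25 for RTS0069797 and −3.41 for RTS0074707. Against cortical T cell segments it was −2.53 for RTS0069797 and −1.58 for RTS0074707.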

How the results depend on the processing

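Each of the 4 named probes kept its direction and call in all 14 alternatives. Log2 fold changes were 4.53 to 5.12 for RTS0063687, 4.01 to 4.31 for RTS0068374, −4.45 to −3.54 for RTS0069797 and −4.50 to −3.34 for RTS0074707. The naming rule asked for libraries that do not overlap, and the alternatives reuse these libraries. The direction of the 4 was therefore largely fixed in advance. No probe called in the main comparison was called in the other direction under any alternative. The counts of called probes (4033 in all, 1453 higher, 2580 lower) stayed within 1.5 times in 39 of 42 alternatives. Here, for the named probes and for the interactions, the alternatives include the fit with no filter. It repeats the main fit, because the filter removed no probe. The fit of probes above the median level counts calls among fewer probes than the main fit. The total was 2171 on slide 1082/1157 alone, with 1166 lower, and leaving out 1 mouse gave 2784 to 4684 in all, 1062 to 1558 higher and 1687 to 3126 lower. The share of higher calls, 36% of all calls, was 48.7% with upper-quartile scaling, 48.8% for probes above the median level and 46.3% on slide 1082/1157. The cause was not tested.

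Without the replicate block, 3108 probes were called in the main comparison, 1097 higher and 2011 lower, and 0 in each interaction. The interaction counts moved in 14 of 23 alternatives, to 216 and 1159 with DESeq2 and 224 in the cortical test with upper-quartile scaling, and over 21 to 1141 (cortical) and 23 to 1559 (medullary) when 1 mouse was left out. The cause was not tested.

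List medians kept their sign in 56 of 56 alternatives. Leaving out 1 mouse, they ranged over 0.35 to 0.42 and 0.86 to 1.04 for the B cell lists and −0.84 to −0.69 and −0.95 to −0.79 for the T cell lists. With lists called without mouse 1143, the medians of B over medullary T and of the reverse were 0.75 and −0.69. Differences of 3 single values turned sign when 1 mouse was left out, with ranges of −0.24 to 1.31 percentage points for saturation, −0.41 to 0.10 for the share of the 10 most abundant probes and −0.85 to 0.43 for that of the 100 most abundant. With 4 mice no single value can reach p = 0.05. The control B cell library of mouse 1143 held 63805 counts, which limits what depends on it.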

Other observations

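Between the 8 libraries, the SD of log2 CPM over the 4 mice had a median over probes of 0.15 in B and 0.15 in T cell libraries. The 1000 most abundant probes held 33.5, 32.4, 35.6 and 34.2% of the counts in the B cell libraries of mice 1042, 1044, 1082 and 1157, against 40.0, 33.2, 33.8 and 36.9% in their T cell libraries.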
